A study of Homo sapiens with 6 samples.

Results

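The glutathione group consists of 9 genes that make, recycle or break down the tripeptide glutathione or supply the cysteine it is built from. They are GCLC, GCLM, GSS, GSR, CHAC1, CHAC2, GGCT, CBS and CTH, taken by symbol from the 29571 rows of the deposited table, and all 9 were found. The cells were of DB, an established cell line from a human diffuse large B-cell lymphoma, and formed 2 groups, labelled DB_ZHX2 and DB_ZHX2_Mut4 and shortened here to ZHX2 cells and Mut4 cells. ZHX2 is a nuclear zinc finger and homeobox protein that regulates transcription, and the labels state neither what Mut4 alters nor how either form was brought into the cells. The series asked which pathways differ between the groups, and its title links ZHX2 to SLC3A2 and to ferroptosis, a cell death driven by iron and lipid peroxides. No untreated or parental DB cells are among the samples, so every difference below is between these 2 groups alone.

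Glutathione is the main thiol of the cell and the reductant that GPX4 uses to remove lipid peroxides, and its supply is limited by cysteine. Cells take cysteine up as cystine through the SLC7A11 and SLC3A2 exchanger, or make it from homocysteine through CBS and CTH. GCLC with its modifier GCLM joins glutamate to cysteine, GSS adds glycine, and GSR returns the oxidised disulphide to glutathione. CHAC1 and CHAC2 cleave glutathione in the cytosol, and GGCT turns gamma-glutamyl amino acids into 5-oxoproline.

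Levels are in FPKM, which are scaled to transcript length and sequencing depth, and the table holds 3 FPKM columns for each group. Within a group the columns were 1 profile multiplied by constants. In Mut4 cells columns 2 and 3 were 1.05 and 1.21 times column 1 at 23808 of 23808 genes above 0. In ZHX2 cells they were 1.33 and 0.897 times column 1 at 23368 of 23370 genes, none of the 9 genes being among the exceptions. Each group therefore counts as 1 sample (n = 1), the distances between its columns are those constants and not a replicate error, and no difference below has a p-value or a replicate check. The columns summed to between 258080 and 383426 FPKM, and the number of reads behind them is unknown. The cells carried the markers of their label: the 6 B-cell markers ranged from 16.8 to 194.9 FPKM in ZHX2 cells and from 19.9 to 249.2 FPKM in Mut4 cells. Markers of T cells with a row reached at most 0.887 FPKM and CD3G was at 0 in both groups, and no myeloid, epithelial or fibroblast marker with a row was above 3.55 FPKM in either group. In bulk RNA, fewer cells expressing a gene and less RNA per cell cannot be told apart.

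CHAC1 and CTH were lower in Mut4 cells than in ZHX2 cells, and the other 7 genes were within 1.5-fold. CHAC1 was 2.72-fold lower and CTH 1.78-fold lower, on the log2(FPKM + 1) scale used for every fold and log2 ratio below unless stated. The other 7 log2 ratios, always Mut4 over ZHX2, lay between -0.33 for GCLC and 0.30 for GGCT. The filter on low values asked for 1 FPKM or more in 3 or more of the 6 columns, and all 9 genes passed it, as did 12646 genes in all. Of those, 12643 were tested, because 3 rows with entries that do not match each other were left out. Of these 12643 genes, 2.56% were at least 1.5-fold lower and 2.54% at least 1.5-fold higher in Mut4 cells, against 2 and 0 of the 9. At 2-fold the share of all genes was 0.712% lower, and CHAC1 was the 1 of the 9 past it. The median of the 9 log2 ratios was 0.07, close to the 0.02 of all genes, with 4 of the 9 below 0. Over all genes the count moved when a column was left out of the mean: without ZHX2 column 2, 202 genes were 1.5-fold lower and 720 higher, and without ZHX2 column 3, 502 were lower. The counts of 2 lower and 0 higher among the 9 were the same in each of those settings.

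**Figure D1:**
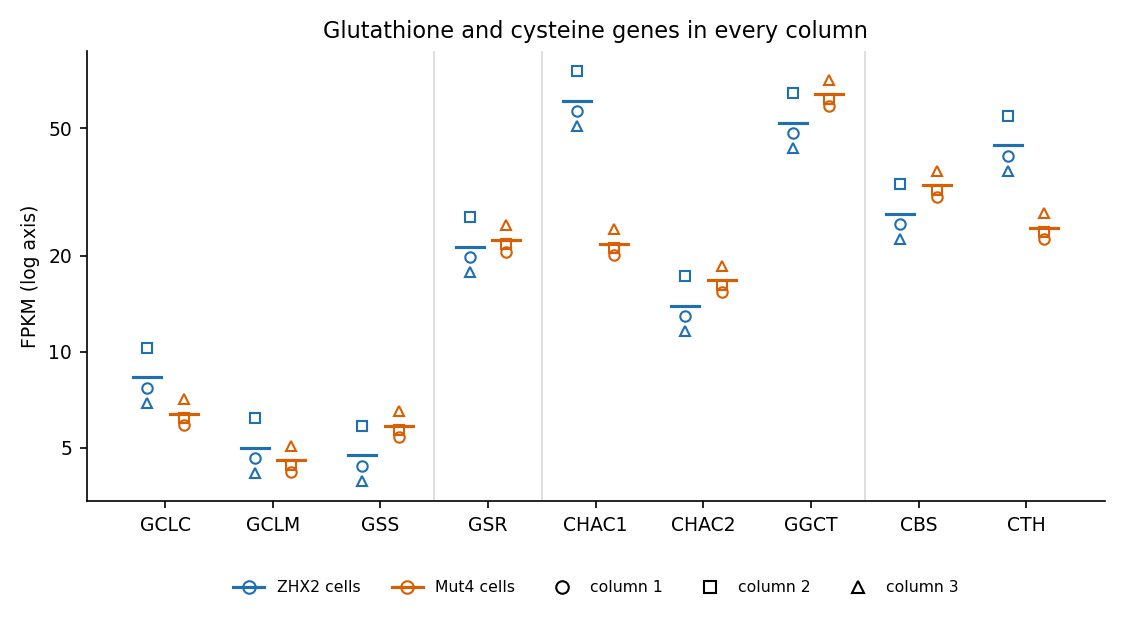
FPKM (log axis) of the 9 genes in each of the 6 columns, ZHX2 cells in blue and Mut4 cells in orange, with a bar at the mean of the 3 columns; the columns of a group are multiples of 1 profile. The orange points of CHAC1 and CTH lie wholly below the blue ones, and those of the other 7 genes overlap.

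CHAC1, glutathione-specific gamma-glutamylcyclotransferase 1, lies on chromosome 15 from 40952962 to 40956519 on the forward strand of GRCh38. The gene is known as a target of ATF4 and CHOP in the response to amino acid shortage and endoplasmic reticulum stress. Its FPKM in columns 1 to 3 was 56.6, 75.5 and 50.8 in ZHX2 cells and 20.1, 21.1 and 24.2 in Mut4 cells. Every Mut4 column lay below every ZHX2 column, which held for 2 of the 9 genes, CHAC1 and CTH, and for 8.86% of all genes tested. For this and every gene below, overlap of columns follows from the fold and the column constants and is no replicate check. The means were 61.0 FPKM in ZHX2 cells and 21.8 FPKM in Mut4 cells, a log2 ratio of -1.44. Of the 12643 genes, 28 had a lower ratio. In the authors' deposited table, which states the ratio the other way round, CHAC1 had a ZHX2 over Mut4 ratio of 2.82, a p-value of 8.69e-13 and a q-value of 2.10e-10, and was marked significant. The sources used here do not say how p-values came from columns that are multiples of 1 profile.

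CTH, cystathionine gamma-lyase, releases cysteine from cystathionine in the last step of transsulfuration and is likewise known as an ATF4 target. It lies on chromosome 1 from 70411218 to 70439851 on the forward strand. Its FPKM was 41.1, 54.8 and 36.9 in the ZHX2 columns and 22.5, 23.7 and 27.2 in the Mut4 columns, again with no overlap. From means of 44.2 and 24.5 FPKM, the log2 ratio was -0.83, and 149 genes (1.18%) had a lower one. For CTH the authors' deposited table lists a ratio of 1.82 with a q-value of 0.00107, without marking it as significant. The mark was given to 1.26% of genes in the authors' deposited table, every marked gene outside 3 mismatched rows differed at least 2-fold by its deposited log2 value, and 541 genes with a q-value under 0.05 were left unmarked below that fold. CHAC1 was the 1 marked gene of the 9.

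The promoters of CHAC1, CTH and CHAC2, the paralogue of CHAC1, are printed here, a choice made with their ratios known. Whether promoter sequence bears on those ratios was not tested. The windows run from 250 bases before to 50 bases after the RefSeq start, on GRCh38.p14, and 6 of the 9 genes had 1 or more. No window was used for GSS, GSR and GGCT. Each window was searched on both strands for TGATGNAA, the core of the C/EBP-ATF composite element to which ATF4 binds, for TGACNNNGC, the core of the antioxidant response element bound by NRF2, and for CCAAT, the box bound by NF-Y. Capitals mark these matches, none of which overlap.
CHAC1, chr15:40953221-40953520, forward strand: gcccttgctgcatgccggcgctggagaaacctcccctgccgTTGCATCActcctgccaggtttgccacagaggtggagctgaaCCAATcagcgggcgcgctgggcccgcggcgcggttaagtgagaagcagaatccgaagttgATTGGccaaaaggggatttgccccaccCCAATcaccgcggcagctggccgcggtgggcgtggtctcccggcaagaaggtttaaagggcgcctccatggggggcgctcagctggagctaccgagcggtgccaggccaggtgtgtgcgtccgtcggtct
CTH, chr1:70411018-70411317, forward strand: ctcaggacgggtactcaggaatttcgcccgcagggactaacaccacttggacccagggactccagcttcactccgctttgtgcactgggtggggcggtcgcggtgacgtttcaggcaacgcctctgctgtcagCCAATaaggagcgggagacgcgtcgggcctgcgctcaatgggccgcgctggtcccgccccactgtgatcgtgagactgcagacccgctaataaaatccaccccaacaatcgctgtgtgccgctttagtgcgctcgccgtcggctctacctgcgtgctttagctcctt
CHAC2, chr2:53767533-53767832, forward strand: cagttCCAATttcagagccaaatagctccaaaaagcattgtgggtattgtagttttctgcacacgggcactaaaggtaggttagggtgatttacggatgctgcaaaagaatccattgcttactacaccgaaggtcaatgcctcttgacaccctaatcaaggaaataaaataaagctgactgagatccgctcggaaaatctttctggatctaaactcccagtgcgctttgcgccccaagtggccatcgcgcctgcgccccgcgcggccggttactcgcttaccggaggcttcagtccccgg

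CHAC1 held the C/EBP-ATF core, on the reverse strand from 209 to 202 bases before the start, and was the 1 gene of the 6 to do so. Of 35116 promoter windows in the RefSeq set, 3.62% held that core. CHAC1 also held 3 CCAAT boxes, beginning 167, 107 and 80 bases before the start. CTH held 1 CCAAT box at 117 bases and neither other motif. CHAC2 had 1 CCAAT box, 245 bases before the start, and its other window had none. The antioxidant core was found once in GCLM, on the reverse strand from 34 to 26 bases before the start, and once in the first of 3 windows of CBS, from 83 to 75 bases before, while the other windows of CBS held 2 and 1 CCAAT boxes. GCLC held 1 CCAAT box, 134 bases before the start. Of all windows 13.3% held the antioxidant core and 34.6% a CCAAT box. A match describes the letters and is no evidence that a factor was bound in these cells, and motifs outside the windows were not searched. In GENCODE v29 the records of CHAC1, GCLC and CBS begin upstream of these windows, at 40952962, 53616970 and 43076943. The distance is greatest for GCLC, whose window runs from 53545052 to 53545351. The records of CTH, CHAC2 and GCLM begin inside theirs.

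The other enzymes of glutathione breakdown did not follow CHAC1. CHAC2, on chromosome 2 from 53767792 to 53775196, is the constitutive form, known to cleave glutathione more slowly than CHAC1. It was at 12.9, 17.3 and 11.6 FPKM in the ZHX2 columns and 15.4, 16.2 and 18.6 FPKM in the Mut4 columns, with overlapping groups and a log2 ratio of 0.25. GGCT was the most abundant of the 9 in Mut4 cells with the CBS row taken alone, though the CBS row and that of its near-copy, described with CBS, together lay higher. The GGCT columns were at 48.2, 64.3 and 43.3 FPKM in ZHX2 cells and 58.9, 62.0 and 71.1 FPKM in Mut4 cells, overlapping, and its log2 ratio of 0.30 was the highest of the 9. GGCT lies on the reverse strand of chromosome 7 from 30496621 to 30504844, where 27.6% of its exonic bases are shared with another record on the same strand. With that record, listed at 0.606 FPKM in ZHX2 and 0.104 FPKM in Mut4 cells, added to GGCT, the log2 ratio was 0.28. The authors' deposited table gave q-values of 0.638 for CHAC2 and 0.542 for GGCT.

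Ratios between 2 genes of the same column do not depend on the column's constant, so they were the same in all 3 columns of a group, within a relative tolerance of 1e-06. On the FPKM scale, which is per length, CHAC1 was 4.37 times CHAC2 in ZHX2 cells and 1.30 times CHAC2 in Mut4 cells, a 3.35-fold difference. Against GGCT, CHAC1 was 1.17 times as high in ZHX2 cells and 0.341 times as high in Mut4 cells. GGCT over CHAC2 was nearly the same in both, at 3.73 and 3.83. CHAC1 thus made up 48.1% of the summed FPKM of the 3 breakdown enzymes in ZHX2 cells and 21.3% in Mut4 cells, while GGCT made up 41.0% and 62.4%. Of the 3, CHAC1 was the highest in the first group and GGCT in the second. Of the 2 that cleave glutathione itself, CHAC1 was the higher in both.

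**Figure D2:**
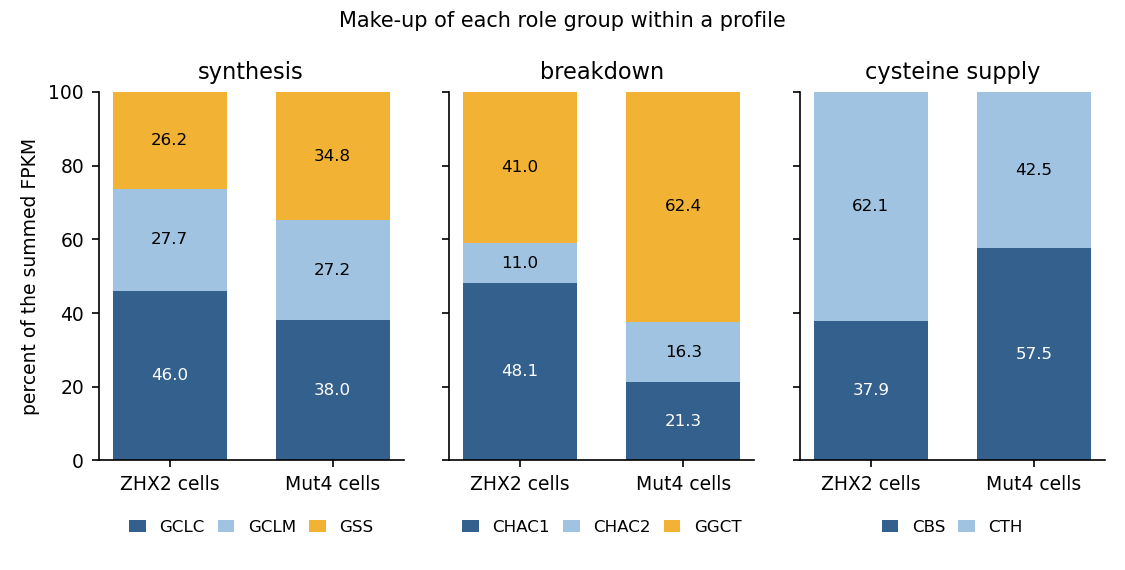
Stacked bars of the percent of the summed FPKM held by each gene of a role group, in ZHX2 and in Mut4 cells; CBS stands without its near-copy record. The share of CHAC1 is 48.1% in ZHX2 and 21.3% in Mut4 cells and that of CTH 62.1% and 42.5%, while the synthesis bars differ less.

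CBS, which joins homocysteine and serine to cystathionine in the step before CTH, did not follow CTH. The gene lies on chromosome 21 from 43053191 to 43076943, reverse strand. Its columns were at 25.1, 33.5 and 22.5 FPKM in ZHX2 cells and 30.5, 32.1 and 36.9 FPKM in Mut4 cells, overlapping, with a log2 ratio of 0.29 and a q-value of 0.548 in the authors' deposited table. The level of CBS is uncertain, because GRCh38 carries a near-copy, CBSL, on the same chromosome from 6444869 to 6468040. In GENCODE v29, 55.9% of the 31-base words of CBS transcripts also occur in CBSL. The deposited table lists CBSL by its identifier only, ENSG00000274276, typed as an artifact, and at a level above that of CBS itself: 55.2, 73.7 and 49.6 FPKM in the ZHX2 columns and 52.2, 55.0 and 63.1 FPKM in the Mut4 columns (log2 ratio -0.07). Reads of the 1 gene may thus be divided between 2 rows, and CBS took 31.2% of their summed FPKM in ZHX2 cells and 36.9% in Mut4 cells. Summed, the rows were at 86.5 FPKM in ZHX2 and 89.9 FPKM in Mut4 cells, a log2 ratio of 0.06. The sum joins rows of different transcript length and is a description only.

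The balance of the 2 transsulfuration enzymes differed between the groups with either reading of CBS. CTH was 1.64 times CBS in ZHX2 cells and 0.738 times CBS in Mut4 cells, a 2.22-fold difference on the FPKM scale. Against the summed CBS and CBSL rows, CTH stood at 0.511 and 0.272, a 1.88-fold difference. The order of CTH and CBS therefore turned between the groups when the CBS row was taken alone, and CTH was the lower of the 2 in both groups when the rows were summed.

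The 3 synthesis genes had the lowest levels of the 9 in both groups and none was 1.5-fold apart. Among all genes tested they were near the middle, with 58.6% of genes at a lower mean level than GCLC, 44.3% than GCLM and 47.6% than GSS. GCLC, the catalytic subunit of glutamate-cysteine ligase, the rate-limiting enzyme, lies on chromosome 6 from 53497341 to 53616970, reverse strand. It was at 7.73, 10.3 and 6.93 FPKM in the ZHX2 columns and 5.90, 6.21 and 7.12 FPKM in the Mut4 columns. These groups overlapped, the log2 ratio was -0.33, and 8.97% of all genes had a lower one. In the authors' deposited table GCLC had a p-value of 0.0534 and a q-value of 0.288.

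GCLM, the modifier subunit, which lowers the enzyme's sensitivity to feedback by glutathione, lies on chromosome 1 from 93885205 to 93909456. Its FPKM was 4.66, 6.21 and 4.18 in ZHX2 cells and 4.21, 4.43 and 5.08 in Mut4 cells, with a log2 ratio of -0.11. Without ZHX2 column 2 all genes shifted upward, the ratio to 0.04 and the median of all genes to 0.17. Relative to that median GCLM lay between -0.16 and -0.11 in each setting whose filter it passed. GSS, glutathione synthetase, on chromosome 20 from 34928433 to 34956027, was at 4.40, 5.87 and 3.95 FPKM in ZHX2 cells and 5.39, 5.68 and 6.51 FPKM in Mut4 cells. Its log2 ratio was 0.26, on the opposite side from both subunits of the ligase, and its columns overlapped too. The q-values in the authors' deposited table were 0.781 for GCLM and 0.543 for GSS.

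Within a profile, GCLC was 1.66 times GCLM in ZHX2 cells and 1.40 times GCLM in Mut4 cells. Relative to GSS, GCLC was 1.75 times as high in ZHX2 cells and 1.09 times as high in Mut4 cells, a 1.61-fold difference, so that GCLC held 46.0% of the summed synthesis FPKM in one and 38.0% in the other. The sum of the 3 was 18.1 FPKM in ZHX2 cells and 16.8 FPKM in Mut4 cells, compared with 126.9 and 102.5 FPKM for the 3 breakdown enzymes and 71.3 and 57.7 FPKM for CBS and CTH with the CBS row taken alone. With CBSL added, CBS and CTH summed to 130.8 FPKM in ZHX2 cells and 114.4 FPKM in Mut4 cells, above the breakdown enzymes in both groups, so the order of these sums depends on the reading of CBS. Breakdown transcripts, GGCT included, were more abundant than synthesis transcripts in both groups, as levels per length. GGCT, which acts on gamma-glutamyl amino acids, held 41.0% of the breakdown sum in ZHX2 cells and 62.4% in Mut4 cells. CHAC1 alone, at 61.0 FPKM in ZHX2 cells and 21.8 FPKM in Mut4 cells, was above the synthesis sum in both groups. It was 7.33 times GCLC in ZHX2 cells and 3.40 times GCLC in Mut4 cells.

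GSR, the NADPH-dependent glutathione reductase, was near equal in the 2 groups. Its columns were at 19.8, 26.4 and 17.8 FPKM in ZHX2 cells and 20.6, 21.7 and 24.9 FPKM in Mut4 cells, overlapping throughout. The log2 ratio was 0.07, and 78.3% of all genes lay farther from 0. It was -0.04 without ZHX2 column 3 and -0.01 without Mut4 column 3, where the rescaled profiles had medians of -0.07 and -0.04 over all genes, and relative to that median GSR lay between 0.03 and 0.07 in each setting run. The authors' deposited table gave GSR a q-value of 0.949.

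**Figure D3:**
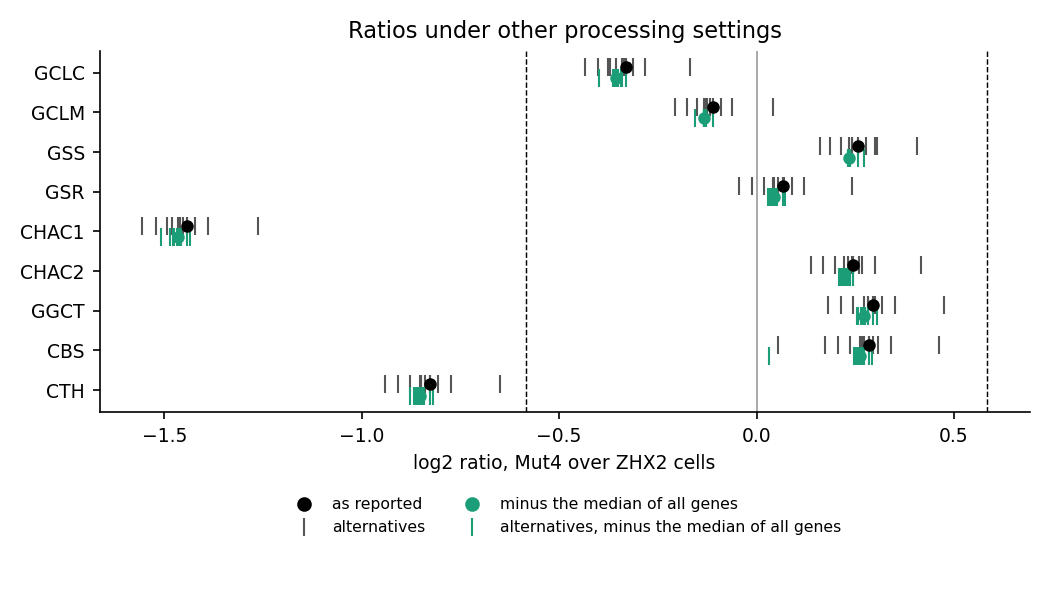
Log2 ratio of each of the 9 genes as reported (black dot) and under each alternative setting (grey ticks), and the same after subtracting the median of all genes in that setting (green). CHAC1 and CTH stay beyond the dashed line at 1.5-fold in every setting run, and GCLM and GSR lie on both sides of 0 until the median of all genes is subtracted.

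**Figure D4:**
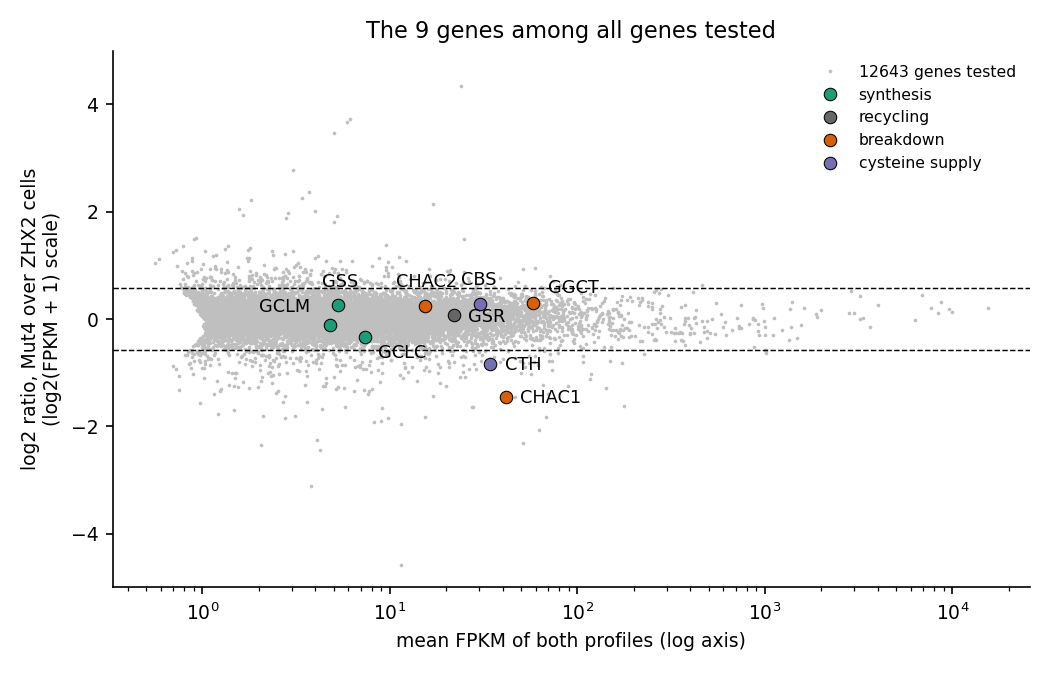
Log2 ratio of Mut4 over ZHX2 cells against mean FPKM (log axis) for the 12643 genes tested in grey, with the 9 genes coloured by role and dashed lines at 1.5-fold. CHAC1 (-1.44) and CTH (-0.83) lie below the lower line and the other 7 inside.

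With the CBS row taken alone, the order in ZHX2 cells by mean FPKM was CHAC1, GGCT, CTH, CBS, GSR, CHAC2, GCLC, GCLM and GSS, from 61.0 down to 4.74 FPKM. In Mut4 cells it was GGCT, CBS, CTH, GSR, CHAC1, CHAC2, GCLC, GSS and GCLM, from 64.0 down to 4.58 FPKM. The summed CBS and CBSL rows, at 86.5 and 89.9 FPKM, would stand first in both. CHAC1 was first in one order and between GSR and CHAC2 in the other, and GSS and GCLM exchanged the last places, GCLM being 1.06 times GSS in ZHX2 cells and 0.781 times GSS in Mut4 cells. CHAC1 was at 21.8 FPKM in Mut4 cells, next to GSR at 22.4 and CTH at 24.5. With n = 1, whether such neighbours differ cannot be tested.

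Carriers that bring in cystine, glutamate and glycine included some of the lower genes. Of 12 measured carriers of these amino acids and of glutathione, 3 were at least 1.5-fold lower, 0 were higher and 8 had ratios below 0, with a median of -0.30, beside 46.2% of all genes below 0. SLC3A2, the heavy chain of the cystine exchanger, was at 102.0 FPKM in ZHX2 and 38.0 FPKM in Mut4 cells (2.64-fold), close to the fold of CHAC1. SLC6A9, which takes up glycine, was 2.47-fold lower, and SLC38A2, which takes up small neutral amino acids, 1.61-fold lower. SLC25A39 and SLC25A40, which bring glutathione into mitochondria, had log2 ratios of 0.36 and 0.40. SLC7A11, the cystine-carrying partner, is given no fold, because the entries of its row do not match each other. Its means were 10.004 FPKM in ZHX2 cells and 2.17 FPKM in Mut4 cells, while the authors' deposited table lists a ZHX2 over Mut4 ratio of 2.44 and a log2 value of 0.53. All 3 put it higher in ZHX2 cells and differ in size.

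Of 7 measured genes that supply glutamate, glycine and serine, 1 was at least 1.5-fold lower, PSAT1 of serine synthesis (1.56-fold), and 5 were below 0, with a median of -0.21. The methionine cycle upstream of CBS had a median of -0.12 over 9 genes and 0 past 1.5-fold in either direction. Its lowest was MAT2B, the regulatory subunit of methionine adenosyltransferase (-0.36), named after its value was seen. Among 13 genes of other cysteine use, the aminotransferase GOT1 was 1.58-fold lower, the rest lay within 1.5-fold, and the median was 0.03. The gamma-glutamyl cycle outside the 9 genes had 5 measured genes, 0 past 1.5-fold and a median of 0.05. GGT1, the transferase that starts breakdown outside the cell, was below the filter, at 0.879 and 0.727 FPKM in ZHX2 and Mut4 cells.

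Enzymes that use glutathione differed little. Of 23 measured, 0 were 1.5-fold apart in either direction, 16 were above 0, and the median was 0.08. This set holds the peroxidases, transferases and glutaredoxins and other genes, among them GLO1, HAGH, ESD, LANCL1, PTGES and PTGES2. GSTP1 was its most abundant gene, at 105.6 FPKM in ZHX2 and 118.9 FPKM in Mut4 cells. The lower levels of CHAC1 and CTH in Mut4 cells thus stood beside measured synthesis and use genes whose ratios all lay within the central 95% of all genes, between -0.59 and 0.59.

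NRF2 is known to drive GCLC, GCLM and GSR in many tissues, and ATF4 to drive CHAC1 and CTH. Whether either factor acted on these genes here was not tested. Of 21 measured genes among NRF2, its partners and targets, 3 were at least 1.5-fold lower and 0 higher, with 13 below 0 and a median of -0.17. The 3 were HMOX1 (1.76-fold), which breaks down haem, FTL, the light chain of ferritin (1.54-fold), and the NRF2 partner MAFG (1.57-fold). NFE2L2, which encodes NRF2, had a log2 ratio of -0.37, and KEAP1, its inhibitor, one of -0.0023. Of 22 measured genes among ATF4 and its targets other than CHAC1 and CTH, 11 were at least 1.5-fold lower, 0 higher and 21 below 0, with a median of -0.54. The 4 lowest were PPP1R15A (4.94-fold), which ends eIF2alpha phosphorylation, the transcription factors ATF3 (3.56-fold) and DDIT3 (2.72-fold), and SLC3A2. The genes of this list that were not called lay within 1.5-fold. Among them were ASNS (log2 ratio -0.13), XPOT (-0.11) and ALDH18A1 (0.08), the 1 gene above 0. ATF4 mRNA itself was at 378.2 FPKM in ZHX2 and 322.0 FPKM in Mut4 cells, a log2 ratio of -0.23. The lists were drawn up with earlier results of these data known and share members with one another, SLC3A2 and PSAT1 among them, so they are not independent of each other.

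**Figure D5:**
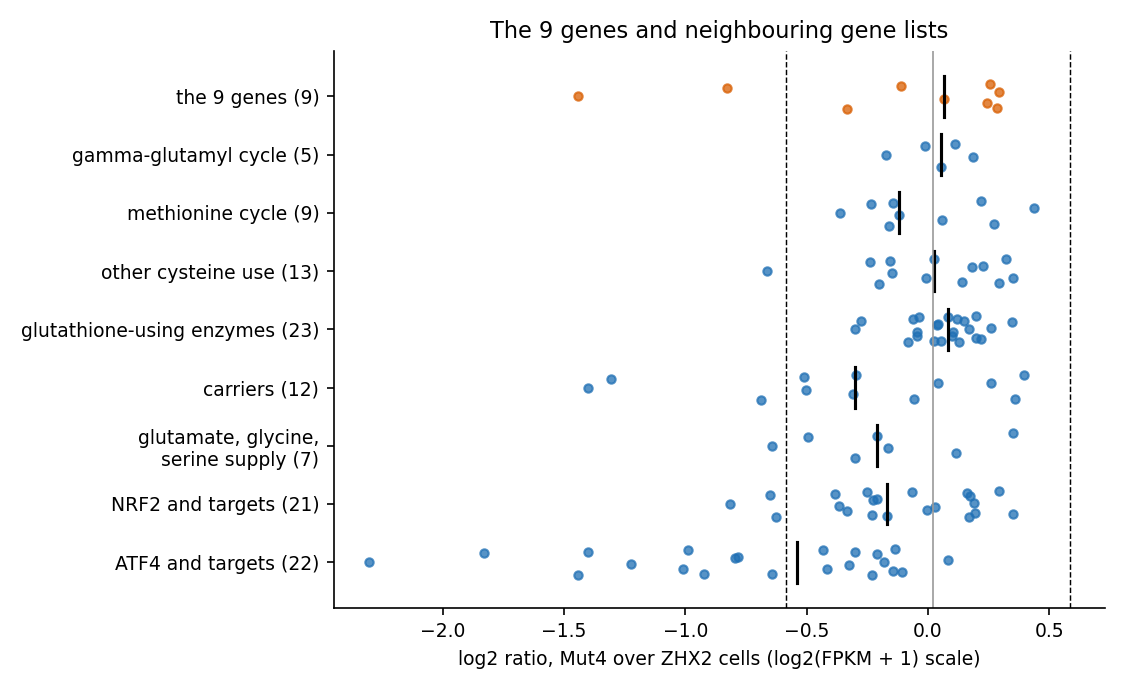
Log2 ratio of Mut4 over ZHX2 cells for the 9 genes (orange) and for the measured genes of 8 neighbouring lists (blue), with the number of genes in brackets, a black bar at each median, a grey line at the median of all genes and dashed lines at 1.5-fold. The ATF4 list has a median of -0.54 and the glutathione-using enzymes one of 0.08. CHAC1 (-1.44) and CTH (-0.83) are the orange points below the lower dashed line.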

How the data were processed

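RNA-seq of DB cells was deposited as 1 table of 29571 genes. Per the labels' protocols, poly(A) RNA was selected and the second strand was marked with dUTP. Tools named in the submitters' processing notes are fastp, HISAT2, StringTie and edgeR, with GRCh38 as the build, and settings and versions are not given in the sources used here. The authors deposited FPKM for 6 libraries, 3 per group, per the file headers. For each gene they also deposited a p-value, a q-value, a linear ratio and the log2 of that ratio. The ratio is ZHX2 column 1 over Mut4 column 1, and matched the FPKM within a relative tolerance of 0.001 in 21470 of 21473 rows. The other 3 (ATG5, ACSL1 and SLC7A11) were left out of counts. The 15 gene symbols with altered letters were restored by gene ID.

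Because the columns of a group were multiples of 1 profile, their mean was used as 1 sample. FPKM holds no counts, so depth is unknown and no interval is given. Log2 ratios were taken of FPKM plus a pseudocount of 1, which understates low genes. Genes with at least 1 FPKM in at least 3 columns were kept, and a call means at least 1.5-fold. The steps were run on simulated profiles made without noise and with changes larger than the fold for a call. Such a run checks the code alone and gives no error rate. The 9 genes, the gene lists, and the rule to name the 9, SLC3A2, SLC7A11, CBSL, the regulators and up to 4 genes per list past 1.5-fold were chosen with earlier results of these data known. The other genes named were picked after their values were seen, and 1 listed gene is not reported here. Positions and 31-base words are from GENCODE v29 and promoters from RefSeq on GRCh38.p14. Alternatives were another pseudocount and filter, quantile normalization, centring, column 1 alone and leaving out each column. Python 3.11.15, numpy 2.4.6 and pandas 2.3.3 were used.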

Additional observations from a re-analysis of the deposited data

How the results depend on the processing

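No paired analysis was possible because each group holds a single profile under 3 column names. A limma fit of 3 against 3 columns, planned only if the columns were not such multiples, was not run. CHAC1 stayed between -1.56 and -1.26 and CTH between -0.94 and -0.65 over 12 alternatives, both at least 1.5-fold lower in each. Most of these could change little, so their number is no measure of robustness. The filters leave a gene's own ratio as it was. Centring, column 1 alone and leaving out a column only shift or rescale whole profiles. Leaving out 1 column rescales a profile: GCLM then ranged from -0.21 to 0.042 and GSR from -0.043 to 0.24. Relative to the median of all genes, which such a change moved by up to 0.15, GCLM lay between -0.16 and -0.11 and GSR between 0.03 and 0.07 over all alternatives run. GCLM could not be computed with the filter at 5 FPKM. Genes at least 1.5-fold lower and higher numbered 324 and 321, 561 and 691 with a pseudocount of 0.1, and 171 and 128 with the filter at 5 FPKM; without 1 column they ranged from 202 to 502 and from 222 to 720. With the filter at 5 FPKM, the median relative to all genes turned to -0.035 for the gamma-glutamyl cycle and to -0.084 for other cysteine use, where fewer genes were measured, and that of the NRF2 list moved from -0.19 to -0.088. With no filter it moved to -0.10 for the NRF2 list, from -0.14 to 0 for the methionine cycle, from 0.06 to 0.036 for glutathione-using enzymes, from 0.03 to 0.068 for the gamma-glutamyl cycle, from 0.0026 to 0.038 for other cysteine use, and for the annotated sets from 0.098 to 0.052 (glutathione metabolism) and from 0.039 to 0.025 (cysteine and methionine metabolism). Without ZHX2 column 2 the glutathione metabolism set was at 0.050. Relative to all genes, the median of the ATF4 list was -0.56 in the main setting and lay between -0.67 and -0.43 over the alternatives. That of the carriers was -0.32 and lay between -0.45 and -0.26. Summing the CBS and CBSL rows, an alternative chosen after seeing the data, gave a log2 ratio of 0.06 in place of 0.29. The read depth is unknown, so no counting error can be given for any level.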

Other observations

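The annotation in the deposited table assigns 48 rows to glutathione metabolism, 7 of the 9 genes among them, and this set was looked at after the data were seen. Of the 27 measured genes outside the 9, 1 was at least 1.5-fold lower in Mut4 cells, 2 were higher and 18 had ratios above 0, with a median log2 ratio of 0.12. IDH1, the cytosolic isocitrate dehydrogenase that makes NADPH, was lower, at 42.4 FPKM in ZHX2 and 12.9 FPKM in Mut4 cells (3.12-fold). IDH2, its mitochondrial counterpart, was higher (1.61-fold), as was RRM2 of ribonucleotide reductase (1.52-fold). The cytosolic and mitochondrial enzymes thus stood on opposite sides.

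The same annotation assigns 45 rows to cysteine and methionine metabolism, 5 of the 9 genes among them. Of 34 measured genes outside the 9, 2 were lower (GOT1 and PSAT1) and 1 higher, the kynurenine aminotransferase KYAT1, which also acts on cysteine conjugates (1.59-fold, 4.12 FPKM in ZHX2 and 7.14 FPKM in Mut4 cells), and the median was 0.06. GGACT, which acts on gamma-glutamyl amines, was below the filter, at 0.633 FPKM in ZHX2 and 0.939 FPKM in Mut4 cells.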
